A study of Mus musculus with 4 samples.

Results

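Granzymes are serine proteases stored in the granules of cytotoxic lymphocytes, and 10 genes of this granule system were followed here in cultured mouse leukaemic cells: the granzyme genes Gzmb, Gzmc, Gzmd, Gzme, Gzmf, Gzma, Gzmk and Gzmm, the perforin gene Prf1, and Srgn, which encodes serglycin. They were chosen by the measured RPKM of Gzmb, which had the largest rise with 4OHT in these same libraries, to ask whether its relatives, its neighbours on the chromosome and its granule partners shared that rise. All 10 symbols were found among the 23240 genes of the deposited table. Because of how they were chosen, their values in the comparison of 4OHT with EtOH are descriptions and carry no test.

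RNA was sequenced from bone marrow of leukaemic mice whose cells had been sorted for GFP and BFP and against the surface markers CD11b and Gr1, a cell type labelled RUNX1-FLT3ITD_AML. Cells had been kept for 22 h in SFEM medium with FLT3L, SCF, IL3 and IL11, either with 200 nM 4OHT (4-hydroxytamoxifen, a drug to which proteins joined to an altered oestrogen receptor domain respond) or with an equal volume of its solvent ethanol (EtOH). The 4 libraries were 1 EtOH and 1 4OHT culture of genotype B6.Runx1-delta/delta (replicate 1) and 1 of each of genotype B6.Runx1-delta/+ (replicate 2). All 4 groups thus carried at least 1 Runx1 delta allele and shared the sort, the cytokines and the labelled leukaemia. The labels do not name the protein on which 4OHT acted, the promoter behind either fluorescent marker, the age of the mice or how many mice gave cells. Genotype and replicate number cannot be told apart, and each combination of genotype and treatment has 1 library. The p-values thus do not measure spread between mice or between cultures treated alike. Their error term is the difference in 4OHT response between the genotypes, joined with a prior drawn from all tested genes.

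Depth recovered from the table was 33.7 to 39.4 M mapped reads per library, so that a level of 0.0254 to 0.0297 RPKM (reads per kilobase and per M mapped reads) stands for 1 read in a gene of 1 kb. Itgam, which encodes CD11b, was at 0.168 to 0.358 RPKM, and of the genes behind the Gr1 epitope Ly6c1 was at 0 to 0.0828 and Ly6c2 at 1.44 to 7.48. Flt3 was at 12.6 and 16.8 RPKM in delta/delta and at 46.3 and 39.7 in delta/+ (EtOH, then 4OHT), while the early myeloid granule genes Mpo and Elane stayed at or below 0.556 in all 4 libraries. Runx1 read 568 and 380 RPKM in delta/delta and 555 and 328 in delta/+, a value over the whole gene that does not show a deleted part and so does not check the genotype label. The 8 globin genes made up 12.3% and 7.66% of summed RPKM in EtOH and 0.918% and 0.662% in 4OHT, a change in composition whose part in the values below was not tested.

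In cytotoxic T cells and natural killer cells, granzymes are made as inactive precursors, sorted to granules by a mannose 6-phosphate tag and activated there by cathepsin C. Serglycin, a small protein carrying long sulphated sugar chains, holds the positively charged granzymes in the granule. On release, perforin forms pores in the target cell, granzymes enter, and granzyme B cuts after aspartate in caspases and their substrates, while the serpin Serpinb9 protects the cell that makes the enzyme. Gzmb and its close relatives Gzmc to Gzmg and Gzmn lie side by side on mouse chromosome 14, next to the genes of mast cell proteases and cathepsin G. Gzma and Gzmk are neighbours on chromosome 13, and Gzmm, Prf1 and Srgn lie apart on chromosome 10.

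The promoter windows of 3 genes of the chromosome 14 cluster are shown because they lie on either side of the boundary described below: Gzmb and its next neighbour Gzmc were read in all 4 libraries, and Gzmf, the gene after Gzmc, in none. Each run is the 250 bases before the RefSeq start site on the minus strand, written 5′ to 3′ along the gene (GRCm38.p6; Gzmb chr14:56262335-56262584, Gzmc chr14:56234658-56234907, Gzmf chr14:56211408-56211657), with capitals marking matches to the motifs named after them.
Gzmb: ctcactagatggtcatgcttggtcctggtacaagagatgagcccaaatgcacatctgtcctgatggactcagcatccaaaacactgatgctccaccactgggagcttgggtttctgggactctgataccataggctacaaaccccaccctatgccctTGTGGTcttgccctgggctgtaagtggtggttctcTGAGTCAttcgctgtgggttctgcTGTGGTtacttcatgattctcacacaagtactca
Gzmc: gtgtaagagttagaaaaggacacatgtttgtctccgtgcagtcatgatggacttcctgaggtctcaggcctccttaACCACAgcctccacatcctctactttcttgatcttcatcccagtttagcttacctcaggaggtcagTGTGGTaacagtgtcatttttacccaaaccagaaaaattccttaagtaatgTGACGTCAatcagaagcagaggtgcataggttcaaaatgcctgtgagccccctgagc
Gzmf: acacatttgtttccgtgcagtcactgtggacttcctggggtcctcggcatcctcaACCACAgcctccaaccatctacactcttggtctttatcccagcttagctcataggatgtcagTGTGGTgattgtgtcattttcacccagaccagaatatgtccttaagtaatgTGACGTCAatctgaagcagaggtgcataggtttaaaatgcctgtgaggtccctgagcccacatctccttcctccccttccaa
The motifs searched on both strands were the RUNX core in its forms TGTGGT and TGCGGT, the AP-1 motif TGANTCA and the CRE motif TGACGTCA, and no match overlapped another in these windows. Each of these promoters held 2 RUNX matches, all of the form TGTGGT, as did those of Gzmd and Gzme. Of 32851 mouse promoter windows of the same length, 18.6% held at least 1 RUNX match and 2.01% at least 2. The Gzmb window had its matches at bases 93 to 88 and 34 to 29 before the start, with the AP-1 match between them at 58 to 52. Gzmc had them at 174 to 169 and 108 to 103, and Gzmf at 195 to 190 and 133 to 128. Both of those promoters also held the CRE motif, at 57 to 50 in Gzmc and at 82 to 75 in Gzmf, where Gzmb had none. AP-1 was found in 6.75% of all windows and CRE in 1.55%. By sequence, Gzmc was nearer to the unread Gzmf (70.2% of aligned columns identical) and Gzme (80.9%) than to Gzmb (47.5%). Outside the cluster, Gzma and Prf1 held 1 RUNX match each, each of the 2 Gzmm starts 1, the 2 Srgn starts 0 and 1, and Gzmk none.

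Gzmb, the gene of granzyme B, was a low or middling transcript with EtOH and an abundant one with 4OHT. In delta/delta cells it was at 0.204 RPKM with EtOH (10 reads) and at 259 with 4OHT (13472 reads). In delta/+ cells it was at 17.0 with EtOH (813 reads) and at 536 with 4OHT (29892 reads). Both 4OHT libraries stood above both EtOH libraries, without overlap, as was so for 38.4% of the 9595 genes that averaged 1 RPKM or more. The ratio was 1270-fold in delta/delta (95% counting interval 690 to 2650) and 31.5-fold in delta/+ (29.3 to 33.8), where the intervals cover counting error only. Its place among all genes above 0, ordered by RPKM, moved from 10565 to 258 in delta/delta and from 3853 to 112 in delta/+. The fitted difference, on the log2(RPKM + 1) scale with genotype as a term, was 6.32 (SE 0.63), the largest rise of all genes tested. That scale understates changes from low levels. In the authors' deposited table the folds of proportions were 1350 and 32.6. In bulk RNA, more cells making a transcript and more transcript per cell cannot be told apart.

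Gzmc, the gene of granzyme C and the next gene on the chromosome, followed the same order of libraries at a far lower level. It was at 0.031 RPKM with EtOH in delta/delta (1 read), 4.23 with 4OHT in delta/delta (145 reads), 2.10 with EtOH in delta/+ (66 reads) and 10.5 with 4OHT in delta/+ (388 reads). The 4OHT libraries again lay above the EtOH libraries without overlap, as for 38.4% of tested genes. Ratios were 137-fold in delta/delta (counting interval 24.1 to 5430, from a single read in EtOH) and 5.03-fold in delta/+ (3.87 to 6.63). The fitted difference was 2.12 (SE 0.19). Relative to Gzmb it was lower with 4OHT: its RPKM was 15.2% and 12.3% of that of Gzmb in the EtOH libraries and 1.63% and 1.97% in the 4OHT libraries of delta/delta and delta/+. Gzmb made up 67.5% and 87.3% of all granzyme RPKM with EtOH and 98.2% and 98.0% with 4OHT. In EtOH of delta/delta the 15.2% and the 67.5% rest on 14 granzyme reads in all, 10 of Gzmb and 1 of Gzmc.

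**Figure D1:**
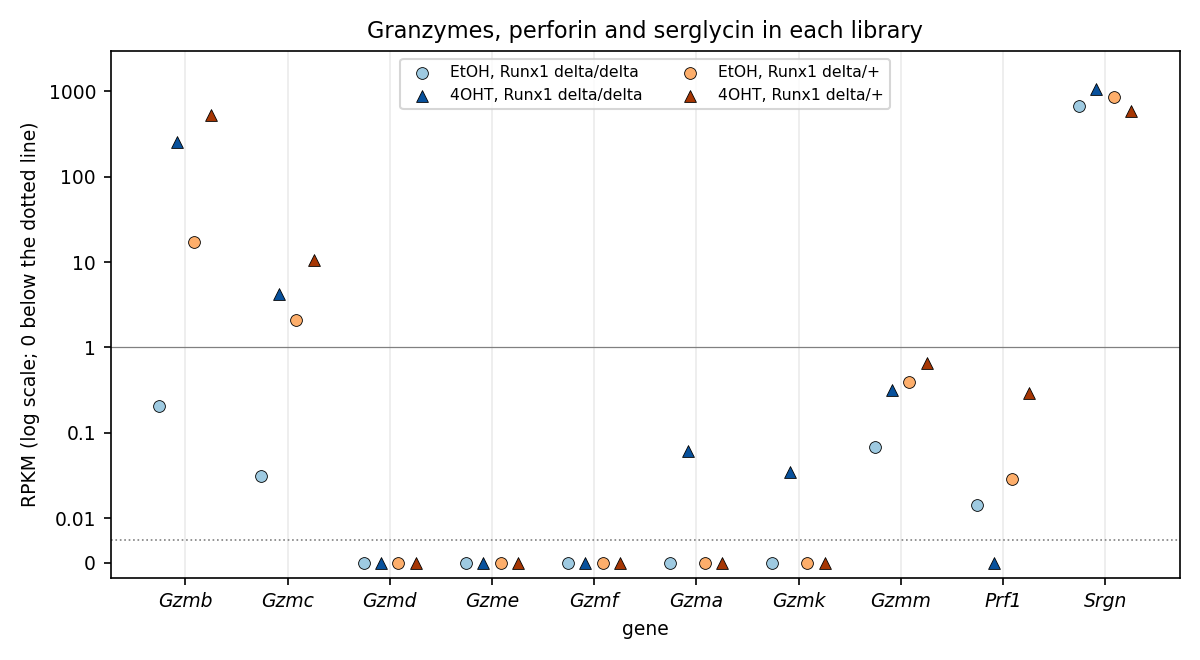
RPKM of the 10 genes in each of the 4 libraries on a logarithmic axis, with values of 0 drawn below the dotted line; circles are EtOH and triangles 4OHT, blue for Runx1 delta/delta and orange for delta/+. Gzmb and Gzmc rise between circles and triangles of the same colour, Srgn is high in every library, and Gzmd, Gzme and Gzmf are at 0.

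The rest of the cluster was silent at this depth. Gzmd, Gzme and Gzmf, which encode granzymes close to granzyme C, were at 0 in all 4 libraries, and so were Gzmg and Gzmn, which lie between them. A count of 0 allows up to 3 reads, which for these genes is a level of 0.077 to 0.0979 RPKM. These paralogs share sequence, and the sources used here do not say how the authors placed reads that match several genes. In GENCODE transcripts, windows of 50 bases of Gzmb matched none of the other members, while 32 of 845 windows of Gzmc (3.79%) also occurred in Gzme, and 110 of 915 of Gzmd (12.0%) in Gzme. With windows of 25 bases, 32 of 1412 of Gzmb (2.27%) and 32 of 870 of Gzmc (3.68%) were shared between the pair. Most of the Gzmb and Gzmc transcripts was thus their own at either length. At 25 bases Gzmc also shared 8.16% of its windows with Gzmd, 10.2% with Gzme and 9.31% with Gzmg. With 4OHT, Gzmc RPKM was only 1.63% and 1.97% of that of Gzmb in delta/delta and delta/+. A small shared part of the abundant Gzmb could therefore weigh on the Gzmc values. Whether reads of Gzmb were counted for Gzmc was not tested.

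Granzymes outside the cluster were read rarely. Gzma, the gene of the tryptase granzyme A, was at 0 in 3 libraries and at 0.062 RPKM in 4OHT of delta/delta (2 reads at the gene length nearest the annotation). Gzmk, the gene of granzyme K beside it, was at 0 in the same 3 libraries and at 0.0344 RPKM in that one, where the table does not settle whether 1 or 2 reads lie behind the value. Both genes stayed below the level of 3 reads in all 4 libraries, so no fold was formed. Gzmm, the gene of granzyme M, was at 0.0674 and 0.318 RPKM in delta/delta (3 and 15 reads, EtOH then 4OHT) and at 0.392 and 0.651 in delta/+ (17 and 33 reads). Its ratios were 4.71 in delta/delta (1.33 to 25.4) and 1.66 in delta/+ (0.899 to 3.18), the groups overlapped, and the second interval includes no change. Gzmm passes only when no filter on low values is set, and is then called higher.

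Prf1, whose protein perforin makes the pores that let granzymes in, was read at most 24 times in a library. It was at 0.0141 RPKM with EtOH (1 read) and at 0 with 4OHT in delta/delta. In delta/+ it was at 0.0289 (2 reads) and at 0.296 (24 reads), a ratio of 10.3 with a counting interval of 2.55 to 89.6. Its highest library was thus that of Gzmb, while 1 read against 0 shows no direction in delta/delta. All of these values lie below the mean of 1 RPKM required for testing, and in 4OHT of delta/delta the count of 0 allows at most 0.0398 RPKM.

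Srgn, by contrast, was among the most abundant transcripts in all 4 libraries. It was at 683 RPKM with EtOH and 1060 with 4OHT in delta/delta (22167 and 36511 reads), and at 852 and 588 in delta/+ (26948 and 21733 reads). Its place by RPKM lay between 60 and 104 throughout. The groups overlapped, since 4OHT was 1.55-fold above EtOH in delta/delta (1.53 to 1.58) and EtOH 1.45-fold above 4OHT in delta/+. The fitted difference was 0.05 (SE 0.27), with a sign that turned to -0.16 under median-ratio scaling. In the authors' deposited table the changes had the same opposite signs, 1.65 and -1.40. Whether the genotypes differ in this response was not tested, since the model uses that difference as its error term and leaves no degree of freedom to test it.

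Of the 10 genes, 3 (Gzmb, Gzmc and Srgn) passed the filter of a mean of at least 1 RPKM, and Gzmb and Gzmc were called higher, where 22.2% of all tested genes were called higher and 10.2% lower (32.4% in all). Because the 4OHT rise chose the set, nothing is read from that count. With all 4 libraries but no genotype term neither gene was called, at the same Gzmb difference of 6.32. A fit to 3 libraries has no room for that term either, here and wherever a library is left out below, so the part of the missing library and that of the missing term cannot be told apart. Such fits called neither gene without EtOH of delta/delta or without 4OHT of delta/+, and only Gzmb without either of the others. The fitted rise of Gzmb ranged from 4.37 without the EtOH library of delta/delta to 8.28 without that of delta/+, and that of Gzmc from 1.33 to 2.91 for the same libraries left out. A 4OHT level over 4 times the EtOH level was found for 4.15% of tested genes in delta/delta and 1.83% in delta/+, and Gzmb and Gzmc exceeded it in both.

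**Figure D2:**
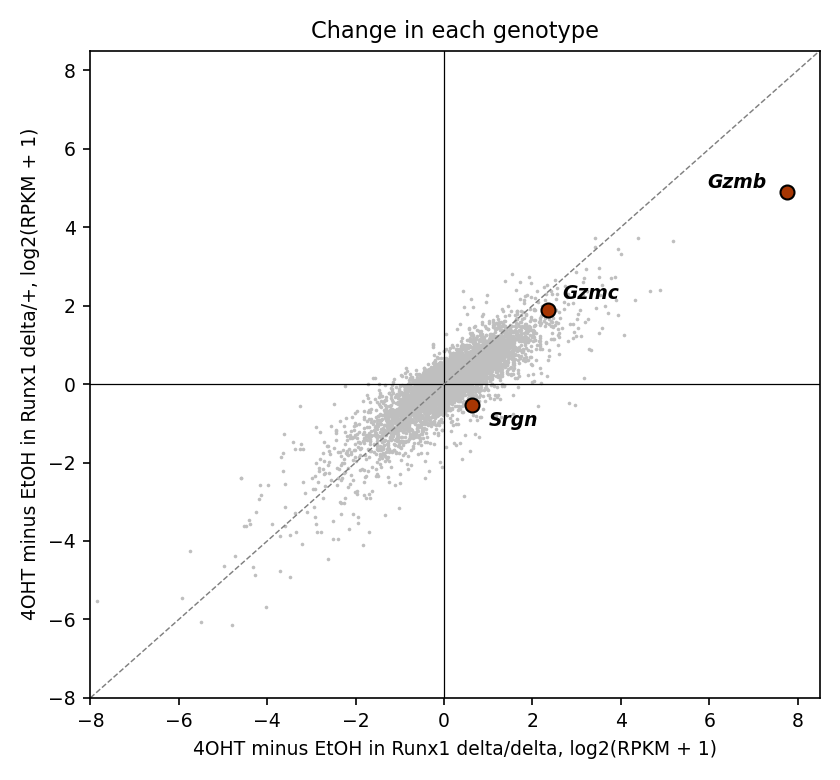
Difference between 4OHT and EtOH on the log2(RPKM + 1) scale in Runx1 delta/delta (horizontal) and delta/+ (vertical) for the 9595 tested genes, with Gzmb, Gzmc and Srgn marked; the dashed line marks equal change. Gzmb lies farthest to the right and below the dashed line, Gzmc is high in both directions, and Srgn has opposite signs.

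The comparison of genotypes did not choose these genes, so its p-values are given. Each genotype had 1 EtOH and 1 4OHT culture and is also the replicate number. These p-values thus do not measure spread between mice or between cultures treated alike, and genotype cannot be told apart from replicate. Gzmc was lower in delta/delta than in delta/+ by 1.36 on the log2 scale (fitted value -1.36, SE 0.19, adjusted p = 0.0239 by limma with Benjamini-Hochberg adjustment; lower in both treatments). Gzmb was also lower in both treatments, by a factor of 83.4 with EtOH and 2.07 with 4OHT, but its difference of -2.47 (SE 0.63) missed the threshold (adjusted p = 0.063). Srgn differed by 0.27 (SE 0.27, adjusted p = 0.532), with delta/delta the lower genotype in EtOH and the higher in 4OHT. Of all tested genes 11.6% were called between genotypes (4.68% higher and 6.91% lower in delta/delta). The Gzmc call was lost with a pseudocount of 0.1 (adjusted p = 0.0644), without a filter on low values (0.075), on recovered reads (0.134), without a treatment term (0.81) and without any 1 of the 4 libraries, where the difference ranged from -2.54 to -0.19. The gap in Gzmb was wider with EtOH than with 4OHT, and without the EtOH library of delta/delta its sign turned (1.40).

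Beyond Gzmc, the rise of Gzmb was not seen in the tested genes on either side of it. Of the 10 RefSeq genes on each side, 19 were in the table and 9 were tested. Gzmc is a member, so its 4OHT values are a description only. None of the 8 others was called in either direction, where 22.2% of all tested genes were called higher and 10.2% lower. Toward the centre of the cluster lay the unread granzyme genes, then Ctsg (cathepsin G) at 1.27 and 1.93 RPKM in delta/delta and 1.10 and 0.355 in delta/+, and Mcpt8 (a basophil protease) at 4.79, 4.93, 3.61 and 0.514 in the same order. Both had their lowest value in the library where Gzmb was highest, with fitted differences of -0.13 (SE 0.28) and -0.79 (SE 0.39). Mcpt4 and Mcpt9 stayed at or below 0.0292. On the other side Atp12a, the first gene past Gzmb, was at 0 in all 4 libraries, and Rnf17 at 0.0115 to 0.317 RPKM. Rnf17, too low to be tested, was 2.46-fold higher with 4OHT in delta/delta (1.5 to 4.16). In delta/+ the ratio was 2.99 (0.57 to 29.5, from 2 and 7 reads). The genes after Atp12a and Rnf17, namely Cenpj, Parp4, Mphosph8, Pspc1, Zmym5 and Zmym2, had fitted differences between -0.42 and 0.40. Between genotypes, 5 of the 9 tested flanking genes were lower in delta/delta and none higher, where 6.91% of all tested genes were lower and 4.68% higher. The 5 were Gzmc, Cenpj (-0.87), Mphosph8 (-1.23), Zmym5 (-0.78) and Zmym2 (-1.26), with adjusted p of 0.0218 to 0.0447 by limma. None of these calls remained without any 1 library or without the treatment term.

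**Figure D3:**
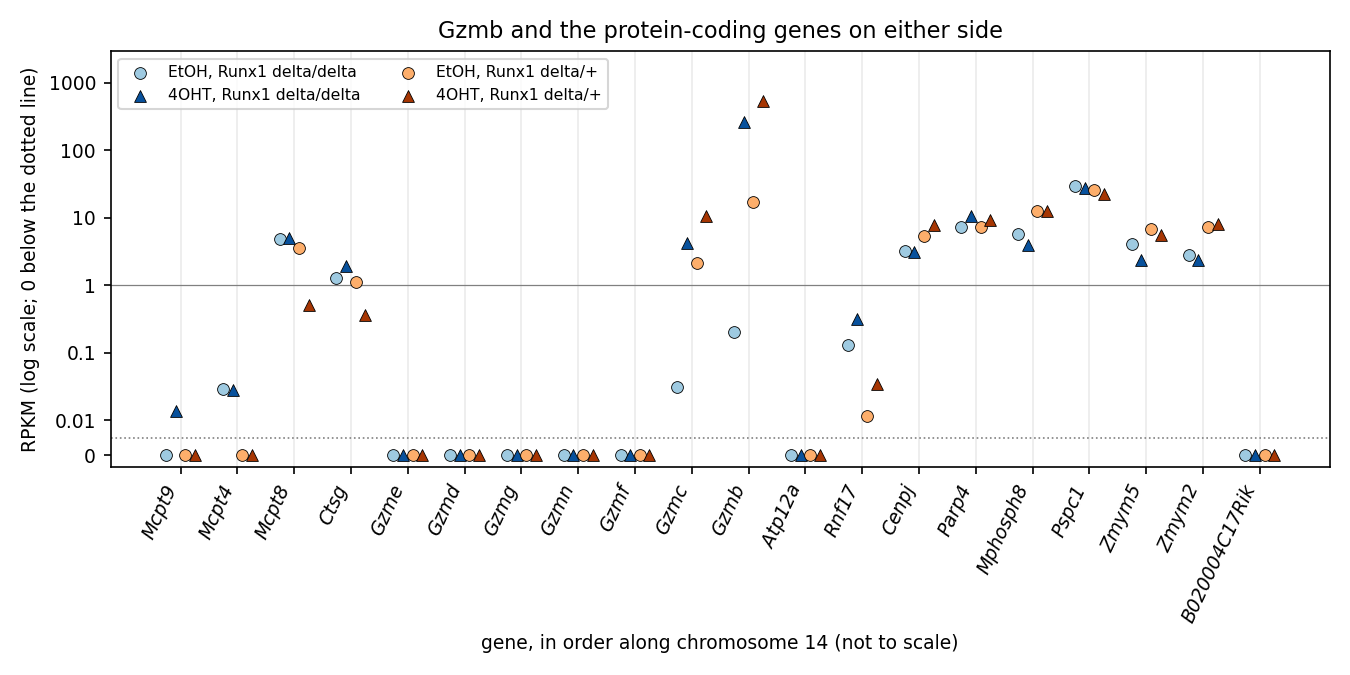
RPKM of Gzmb and of the 19 neighbouring genes in the table, in chromosome order, on a logarithmic axis with 0 below the dotted line and the same symbols as for the 10 genes. Gzmb and Gzmc separate by treatment, 5 granzyme genes to the left are at 0, and the genes to the right change little.

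A wider list of 22 genes of this locus and of the neighbouring gene block had 8 tested genes, of which 2 were higher and none lower, with a median difference of -0.04. Over all tested genes, 22.2% were higher, 10.2% lower and the median was 0.16, the background for this list and those below. The 2 were Sdr39u1 and the member Gzmc, whose 4OHT values carry no test. Sdr39u1, an oxidoreductase gene, was at 10.1 and 38.3 RPKM in delta/delta and at 16.8 and 38.4 in delta/+ (1.49, SE 0.20, adjusted p = 0.00708 by limma, higher in both genotypes). Without EtOH of delta/delta, 4OHT of delta/delta, EtOH of delta/+ or 4OHT of delta/+ the list had 0, 0, 1 and 0 calls. Next to the other members, Snx18, the only gene tested near Gzmk (1.07, SE 0.17, adjusted p = 0.011), was higher. So was Polrmt, 1 of 4 tested near Gzmm (0.70, SE 0.14, adjusted p = 0.0185). The only tested neighbour of Prf1, Eif4ebp2, was not called (0.47, SE 0.16, adjusted p = 0.0754 by limma). Around Srgn, 3 of 5 tested neighbours were higher: the RNA helicase genes Supv3l1 (0.60, adjusted p = 0.0271) and Ddx21 (0.90, adjusted p = 0.00888), and 2510003E04Rik (0.79, adjusted p = 0.0126). None of these 5 calls next to Srgn, Gzmk and Gzmm remained without any 1 library, and those of Supv3l1 and Polrmt were also lost under median-ratio scaling.

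Genes that prepare granzymes, in an activation and sorting list of 10 with 8 tested, had 2 higher, 1 lower and a median of 0.34. These counts are near the background of 22.2% higher and 10.2% lower among all tested genes. Ctsc, the gene of cathepsin C, which cuts granzyme precursors to their active form, was at 7.49 and 30.9 RPKM in delta/delta and at 14.6 and 39.0 in delta/+ (EtOH, then 4OHT). Its values rose by 1.63 (SE 0.18, adjusted p = 0.00529). The 4OHT libraries lay above the EtOH libraries without overlap, as was so for 38.4% of tested genes. Gnptab, which encodes the enzyme that starts the mannose 6-phosphate tag, went from 9.04 to 32.4 and from 11.5 to 36.6 (1.66, SE 0.14, adjusted p = 0.00315). Ctsl, the gene of the lysosomal protease cathepsin L, fell from 7.54 to 3.41 and from 14.1 to 7.12 (-0.93, SE 0.14, adjusted p = 0.00941). M6pr, a receptor for the tag, was high in all libraries (144 to 202 RPKM) and not called (0.32, SE 0.13, adjusted p = 0.111). Cst7, an inhibitor of cathepsin C, was not called either (0.36, SE 0.31, adjusted p = 0.407). With libraries left out in the order EtOH and 4OHT of delta/delta, EtOH and 4OHT of delta/+, the list had 0, 1, 2 and 0 calls, and without the genotype term 1.

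Serpins that inhibit granule proteases inside cells went mostly the other way. Of the 8 genes listed, 6 were tested, 4 were lower and 1 higher, where 10.2% of all tested genes were lower, with a median of -1.63 against 0.16 over all. Serpinb9, the inhibitor of granzyme B, fell from 11.3 to 2.87 RPKM in delta/delta and from 14.8 to 3.82 in delta/+ (-1.69, SE 0.14, adjusted p = 0.00315). Its relative Serpinb9b fell from 1.59 to 0.0282 and from 10.4 to 0.132 (-2.33, SE 0.47, adjusted p = 0.0185), a call lost without a filter on low values (adjusted p = 0.0524), where the list had 1 higher and 3 lower. Serpinb9b passed the filter only through its EtOH libraries, so its p-value and its part in the 4 lower calls are descriptions. Serpinb9 and Serpinb9b were each lower with 4OHT in both genotypes. Serpinb6b fell from 25.1 to 2.46 and from 37.2 to 6.52 (-2.63, SE 0.18, adjusted p = 0.0023). Serpina3g, an inhibitor of lysosomal cathepsins, fell from 51.7 to 12.9 and from 26.3 to 10.6 (-1.58, SE 0.20, adjusted p = 0.00651). Serpinb1a, an inhibitor of neutrophil serine proteases, rose from 4.69 to 12.0 and from 13.1 to 21.5 (0.93, SE 0.18, adjusted p = 0.016). Serpinb6a was not called, with 6.08 and 9.04 in delta/delta and 24.4 and 22.7 in delta/+ (0.20, SE 0.19, adjusted p = 0.435). With the same libraries left out in turn the list had 0, 1, 1 and 2 calls, all of them lower, and without the genotype term 1. Between genotypes Serpinb6a (-1.54, adjusted p = 0.0201), Serpinb1a (-1.05, adjusted p = 0.0307) and Serpinb6b (-0.83, adjusted p = 0.0476) were lower in delta/delta, calls that no fit without 1 library or without the treatment term kept.

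**Figure D4:**
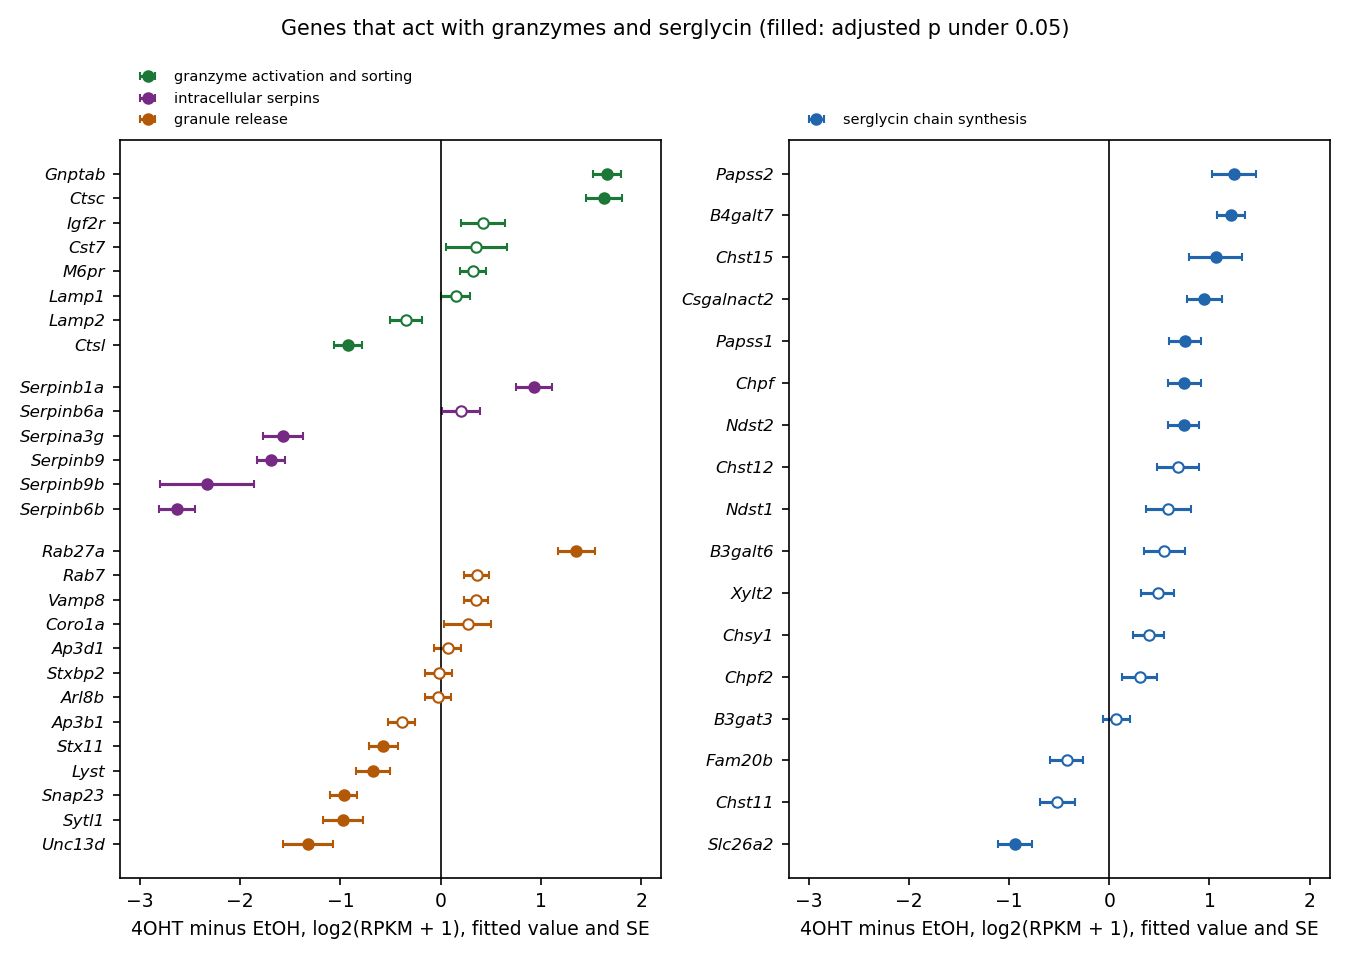
Fitted difference between 4OHT and EtOH with its standard error on the log2(RPKM + 1) scale for tested genes of granzyme activation and sorting, intracellular serpins and granule release (left) and of serglycin chain synthesis (right); filled circles mark an adjusted p under 0.05. Ctsc and Gnptab lie to the right, 4 serpin genes lie far to the left, and the chain synthesis genes lie mostly to the right of 0.

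Of 15 genes for the machinery that docks and fuses granules, 14 were in the table and 13 tested, with 5 lower, 1 higher and a median of -0.03, where all tested genes had 10.2% lower, 22.2% higher and a median of 0.16. Rab27a, the small GTPase that tethers granules, rose from 1.34 to 5.88 RPKM in delta/delta and from 1.09 to 3.65 in delta/+ (1.35, SE 0.18, adjusted p = 0.0074). Unc13d, which primes granules for fusion, fell from 78.6 to 44.1 and from 68.3 to 18.5 (-1.32, SE 0.25, adjusted p = 0.0165). Smaller falls were those of the fusion proteins Snap23 (-0.97, adjusted p = 0.00746) and Stx11 (-0.57, adjusted p = 0.0341), the Rab27 partner Sytl1 (-0.97, adjusted p = 0.0204) and the granule size regulator Lyst (-0.67, adjusted p = 0.0343). Sytl1 passed the filter only through its EtOH libraries, so its p-value and its part in the 5 lower calls are descriptions. With libraries left out in turn the list had 0, 1, 0 and 0 calls, without the genotype term 0, and with a mean of at least 5 RPKM 3 lower and none higher. Without a filter there were 3 lower and 1 higher, with Stx11 (adjusted p = 0.0623) and Lyst (adjusted p = 0.0946) lost, and on recovered reads Stx11 was lost (adjusted p = 0.0516). Vamp8, a fusion protein at 164 to 350 RPKM, was not called with 4OHT but was higher in delta/delta than in delta/+ (0.73, adjusted p = 0.029), and Snap23 was lower there (-0.70, adjusted p = 0.0363).

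Srgn itself had no common direction. Of 22 genes that build its sugar chains 17 were tested, with 7 higher, 1 lower and a median of 0.59, where all tested genes also had more higher than lower calls (22.2% and 10.2%) and a median of 0.16. B4galt7, which adds the first galactose of the linker, rose from 3.19 to 9.25 RPKM in delta/delta and from 5.35 to 13.0 in delta/+ (1.21, SE 0.14, adjusted p = 0.00596). Papss2, which makes the sulphate donor, rose from 14.3 to 47.2 and from 18.0 to 32.8 (1.25, SE 0.22, adjusted p = 0.0138). The other rises were Papss1 (0.75), which makes the same donor, Csgalnact2 (0.95), which starts chondroitin chains, Chpf (0.75), which lengthens them, and the sulphotransferase genes Chst15 (1.06) and Ndst2 (0.74), with adjusted p of 0.0151 to 0.034. Slc26a2, a sulphate transporter, fell from 10.1 to 3.97 and from 10.2 to 5.81 (-0.94, SE 0.17, adjusted p = 0.0144). Under median-ratio scaling the counts were 4 higher and 3 lower, without a filter on low values 4 and 0, and without any 1 library or without the genotype term none was called. Between genotypes Fam20b (0.95, adjusted p = 0.0317) and B3gat3 (0.78, adjusted p = 0.0334), which act on the linker, were higher in delta/delta. Of 12 other proteoglycan core proteins only Sdc1 and Cd44 passed the filter, and neither was called (0.76, SE 0.23, adjusted p = 0.0545, and 0.65, SE 0.23, adjusted p = 0.0868). Their highest values, 2.98 and 42.2 RPKM, were far below those of Srgn.

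Among serine proteases of myeloid granules (12 genes, 5 tested, 2 higher where 22.2% of all tested genes were, none lower, median -0.13), the rises were those of Prss34, a basophil and mast cell protease, and Cpa3, a mast cell carboxypeptidase listed with them. Prss34 went from 3.04 to 79.6 RPKM in delta/delta and from 1.81 to 11.3 in delta/+ (3.23, SE 0.49, adjusted p = 0.00956). Cpa3 went from 0.637 to 24.2 and from 1.84 to 8.66 (2.85, SE 0.49, adjusted p = 0.0128). In both genes, unlike Gzmb, the higher 4OHT library was that of delta/delta. Both calls remained without 4OHT of delta/+ and were lost without any other library or without the genotype term.

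The list of regulators described for granzyme and perforin genes had 26 entries, with 16 tested, 8 higher, 4 lower and a median of 0.33, against 22.2% higher and 10.2% lower among all tested genes. Of the factors best known for switching on Gzmb in lymphocytes, the T-box gene Tbx21 was at 0 in all libraries and Prdm1 stayed at or below 0.0519 RPKM. The T-box gene Eomes was at 0 in both EtOH libraries and at 0.066 and 0.082 RPKM with 4OHT (9 reads in delta/delta and 12 in delta/+), at least 2.83-fold and 3.42-fold higher than a floor of 3 reads per EtOH library. Il2ra, a receptor chain for interleukin 2, rose from 0.176 to 2.44 RPKM in delta/delta and from 0.683 to 10.8 in delta/+ (2.18, SE 0.32, adjusted p = 0.00872), and its highest library was that of Gzmb. Of the other chains of that receptor, Il2rg fell from 60.9 to 40.4 and from 97.0 to 37.7 (-0.96, SE 0.21, adjusted p = 0.0233), and Il2rb stayed below the filter at 0.0429 and 0.182 in delta/delta and 0.066 and 0.264 in delta/+. Id3 (1.70), Nfil3 (1.15), Il12rb2 (1.21) and Stat3 (0.81) also rose and Bhlhe40 fell (-0.98), with adjusted p of 0.00569 to 0.0128. Il2ra, Id3 and Il12rb2 were below 1 RPKM in both EtOH libraries and passed the filter only through their 4OHT libraries. Their p-values and their part in the 8 higher calls are thus descriptions. Of the RUNX genes, whose core motif was matched in the Gzmb promoter shown above, Runx1 fell (-0.67, SE 0.12, adjusted p = 0.0129) and Runx3 fell from 1.59 to 0.833 and from 2.45 to 0.437 RPKM (-0.88, SE 0.25, adjusted p = 0.046). Runx3 passed the filter only through its EtOH libraries, so its p-value and its part in the 4 lower calls are descriptions. The Runx1 value covers the whole gene in cells labelled RUNX1-FLT3ITD_AML, and the source of its reads was not tested. Cbfb, the partner of the RUNX proteins, rose from 16.1 to 59.7 and from 27.1 to 41.3 (1.21, SE 0.30, adjusted p = 0.0324). With libraries left out in turn the list had 0, 1, 0 and 0 calls, and without the genotype term 0. With a mean of at least 5 RPKM it had 3 higher and 2 lower, and without a filter 7 higher and 1 lower.

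Of 20 substrates described for granzyme B, 19 were in the table and 18 tested, with 5 higher, 1 lower and a median of 0.20, near the 22.2%, 10.2% and 0.16 of all tested genes. Caspase 3, the protease that granzyme B activates, was at 102 and 301 RPKM in delta/delta and at 225 and 287 in delta/+ and not called (0.95, SE 0.28, adjusted p = 0.0545). Apex1 (1.38), Parp1 (1.27), Set (1.02), Ncl (0.87) and Lmnb1 (0.65), genes of nuclear proteins, rose with adjusted p of 0.00462 to 0.0166. Casp9 fell (-0.66, SE 0.14, adjusted p = 0.0202). With libraries left out in turn the list had 0, 0, 0 and 1 calls, without the genotype term 0, and under median-ratio scaling 4 higher and 3 lower.

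Cell types in which Gzmb is usual were looked for by their markers. Of 24 T and NK cell markers 4 (Cd3e, Klrd1, Klra1 and Ifng) were at 0 in all libraries, and the 20 genes with a mean below 1 RPKM summed to 0.451 to 1.80 RPKM per library. The summed list was 64.1 and 112 RPKM with EtOH and 318 and 159 with 4OHT (delta/delta, then delta/+), nearly all of it from Lat, an adaptor also known from mast cells and platelets; without Lat the sums were 4.94 and 11.8, and 9.76 and 5.37. Of the 4 markers tested (median 0.49), Lat (1.49, adjusted p = 0.0409) and Nkg7 (2.05, adjusted p = 0.0101) rose and Lck and Ccl5 were not called. Among all tested genes, 22.2% were higher and 10.2% lower. Nkg7, a granule membrane protein of cytotoxic cells, was at 0.178 and 6.53 RPKM in delta/delta and 0.365 and 2.68 in delta/+. It passed the filter only through its 4OHT libraries. Of 13 plasmacytoid dendritic cell markers 4 (Siglech, Ccr9, Klk1 and Cd209d) were at 0, and Ly6d (1.71, adjusted p = 0.00643) and Ptprcap (2.08, adjusted p = 0.0362) rose among 4 tested (median 1.0). Ly6d, at 0.167 and 0.172 RPKM with EtOH in delta/delta and delta/+, also passed the filter only through its 4OHT libraries (3.51 and 2.24). The plasmacytoid list summed to 484 and 167 RPKM with EtOH and 475 and 155 with 4OHT, and without Bst2 to 7.90, 19.3, 60.0 and 36.4.

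Of 15 mast cell and basophil markers, 11 were tested, 5 were higher and none lower, with a median of 0.50, where 22.2% of all tested genes were higher and 10.2% lower. Besides Prss34 and Cpa3 these were the high-affinity IgE receptor chains Ms4a2 (0.859 to 14.2 and 1.09 to 4.60 RPKM; 2.23, adjusted p = 0.0126) and Fcer1g (6.81 to 45.7 and 10.5 to 26.6; 1.92, adjusted p = 0.0114), and the receptor gene Il1rl1 (0.50, adjusted p = 0.0429). The other 6 were not called, and 5 of them had negative differences: the transcription factor gene Gata2 (-0.91, adjusted p = 0.0619), Mcpt8 (-0.79, adjusted p = 0.175), the histamine-forming enzyme gene Hdc (-0.65, adjusted p = 0.054), the chymase gene Cma1 (-0.58, adjusted p = 0.155) and Cd200r3 (-0.57, adjusted p = 0.356). The sixth, the IgE receptor chain gene Fcer1a, was at 1.69 and 20.1 RPKM in delta/delta and at 4.45 and 2.79 in delta/+ (1.22, SE 0.77, adjusted p = 0.269), with 11.9-fold and 0.628-fold ratios in opposite directions. The list summed to 277 and 332 RPKM with EtOH and 424 and 217 with 4OHT in delta/delta and delta/+, and without Gata2, its most abundant gene, to 97.0, 149, 279 and 153. Kit was at 0.0781 and 1.61 in delta/delta and 0.0973 and 0.74 in delta/+, and Mrgprb2 at 0 in all libraries. With libraries left out in turn there were 0, 0, 0 and 5 calls, without the genotype term 0, and under median-ratio scaling 4 higher and 2 lower. In the T and NK list the same omissions gave 0, 0, 0 and 2 calls, and in the plasmacytoid list 0, 0, 1 and 0, with 0 in both lists without the genotype term. Under median-ratio scaling the calls of Lat and Ptprcap were lost. The part of such cells in the rise of Gzmb was not tested.

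By pattern over the 4 libraries, the 6 genes most like Gzmb were Abcd3, Cdca7, Etv4, Zmynd11, Man2a2 and Phf20, with Pearson correlations of log2(RPKM + 1) of 0.9997 to 0.9999. With 4 libraries such values are common: 165 of 3082 genes with a range of at least 1 on that scale reached 0.99. Etv4, an ETS family transcription factor, came nearest in size, at 0.248 and 6.64 RPKM in delta/delta and 2.17 and 9.22 in delta/+. Gzmc had a correlation of 0.9736 with Gzmb. All these genes, Gzmc included, had the order of the libraries of Gzmb, lowest in EtOH of delta/delta and highest in 4OHT of delta/+. For the 6 genes this follows from choosing them by correlation.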

How the data were processed

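RNA-seq libraries of 4 cultures were compared by treatment (EtOH, 4OHT) and genotype. Total RNA from sorted cells went into TruSeq or NEBNext libraries, per the labels' protocols (the kit of each library, the aligner, the counting rule and strandedness: not given in the sources used here). Mouse build mm 9 is named in the submitters' processing notes. Per the file headers, the authors deposited RPKM for each library and, within each replicate number, Kal's Z-test comparing 4OHT to EtOH, of which only the fold of proportions is used here and the deposited p-values are not.

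The members and lists were chosen with earlier results of these data known. Since the values are RPKM, limma 3.58.1 (R 4.3.3) was run on log2(RPKM + 1) over the genes averaging 1 RPKM or more, with treatment and genotype as terms, a trended prior, two-sided tests and Benjamini-Hochberg adjustment over all 9595 genes at 0.05; 1 residual degree of freedom was left, to which the prior added 4.37. The filter takes the mean over all 4 libraries. Genes low with EtOH, such as Nkg7, Ly6d, Il2ra, Id3 and Il12rb2, thus passed it through their 4OHT libraries alone. Genes low with 4OHT, such as Serpinb9b, Runx3 and Sytl1, passed it through their EtOH libraries alone. The response of the genotypes to 4OHT could not be compared by a test. Genotype is the replicate number, and the deviations of same-numbered libraries from their treatment means correlated at 0.664 over genes. Library totals and whole reads were recovered from the steps of the RPKM values for 17213 of 17213 genes above 0 (tolerance 0.0001 reads); 1 read in 1 kb is worth 0.0254 to 0.0297 RPKM. Counting intervals are exact 95% intervals of a ratio of reads, and the floor is 3 reads per library; both cover counting error only. The fit and the recovery were tested on simulated data.

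Named genes were the members; all measured genes of a list with up to 6 above 0, otherwise up to 6 with the smallest p and a mean above 1 RPKM; flanking RefSeq genes, 3 on each side or 10 for Gzmb; and the 6 genes most like Gzmb. Other genes were named after their values were seen. Promoters, from RefSeq (GRCm38.p6), matched all 10 members, and transcripts for shared windows came from GENCODE; no coordinates were carried to mm 9. Alternatives were other pseudocounts (0.1, 0.5), filters (none, 5 RPKM) and scaling, no trend, no genotype or treatment term, each library left out, and limma voom on recovered reads, chosen after seeing the data.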

Additional observations from a re-analysis of the deposited data

Results flagged for a closer look

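In 6 of the genes checked, the difference between 4OHT and EtOH on the log2(RPKM + 1) scale changed sign between Runx1 delta/delta and delta/+. The check did not cover every gene named above. The difference between the genotypes was not tested, since each combination of genotype and treatment has 1 library. Srgn was 0.63 higher with 4OHT in delta/delta and 0.53 lower in delta/+ (0.63 and -0.53). Prf1 read -0.02 and 0.33, from at most 24 reads. Serpinb6a read 0.50 and -0.10, and Cenpj -0.04 and 0.47. For Zmym2 the differences were -0.18 and 0.14, and for B3gat3 0.15 and -0.01. Named genes outside the check changed sign too. Among them were Fcer1a (2.97 in delta/delta and -0.52 in delta/+), Cst7 (1.0 and -0.28), Ctsg (0.37 and -0.63) and Lck (-1.13 and 0.14).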

How the results depend on the processing

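The count of genes called with 4OHT was 3113 (2130 higher, 983 lower). It stayed between 2209 and 3093 under other pseudocounts, filters and priors, median-ratio scaling and limma voom on recovered reads. Median-ratio scaling moved the median of all tested genes from 0.16 to -0.02 and the split to 1221 higher and 1325 lower. Leaving out a library, which leaves no room for the second factor and assumes that a lone library varies like the others, gave 3 to 245 calls. Without the replicate block, that is without the genotype term, 233 genes were called and 0 of the 10 members. Members called with 4OHT numbered 2, but 1 with a mean of at least 5 RPKM, which removes Gzmc, 3 without a filter, and 0 to 1 with a library left out. Of 54 named calls with 4OHT, 2 (Gnptab and Serpinb9) remained without the replicate block, 44 under median-ratio scaling, 39 without a filter, and 0, 5, 6 and 9 without EtOH replicate 1, 4OHT replicate 1, EtOH replicate 2 and 4OHT replicate 2. Between genotypes 1112 genes were called, 646 with a mean of at least 5 RPKM, 0 without a filter (3906 at an unadjusted p under 0.05), 0 without the treatment term (880) and 0 in each fit without a library (169 to 627), by limma. The 1 member called there became 0 with a pseudocount of 0.1, without a filter, with a mean of at least 5 RPKM, with limma voom, without the treatment term and without any library. The sign of Srgn with 4OHT turned to -0.16 under median-ratio scaling, -0.11 without EtOH replicate 1 and -0.38 without 4OHT replicate 1 (highest with a library left out 0.47), and between genotypes to -0.05 and -0.00 without 4OHT replicates 1 and 2 (highest 0.58). Serpinb6a with 4OHT turned to -0.72 without EtOH replicate 1 and -0.42 without 4OHT replicate 2 (highest 1.12). Between genotypes Gzmb turned to 1.40 without EtOH replicate 1 (lowest -6.35 without 4OHT replicate 1), and Serpinb6b to 0.62 without 4OHT replicate 1 and 0.34 without EtOH replicate 2 (lowest -2.29). The cause of these changes was not tested, except that fits without a library hold fewer samples and 1 factor. The planned edgeR fit was not run, since the deposited values are RPKM. Depth limits Gzma, Gzmk, Gzmm and Prf1, which had 0 to 33 reads in each library.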
